A study of Mus musculus with 4 samples.

Results

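The MAP kinase phosphatases Dusp1, Dusp2, Dusp4, Dusp5, Dusp6 and Dusp10 and the Sprouty family genes Spry1, Spry2, Spred1 and Spred2 were followed in cultured mouse spleen cells with and without imatinib. These 10 genes were taken by their symbol in the scanner files, which gave 11 probes for 10 genes among 39429 probes for 31709 gene names, with a second probe for Spred1 alone. Each probe is 60 bases long and was printed in 1 spot on each array. The cells came from C57BL/6 mice, female and 8 weeks old. The 2 imatinib samples were cultured for 72 h with imatinib at 10 µM (a drug that blocks ABL, KIT and PDGFR kinases) together with IL-4 and LPS, and the 2 control samples for the same time with IL-4 and LPS alone. IL-4 and LPS drive B cells to divide and to switch antibody class. Each sample was hybridised to its own 1-colour Agilent array, and the RNA was that of the whole mixed culture. Whether samples of 1 group were separate animals or cultures is not stated, so p-values measure only the spread between these samples, which may be technical.

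MAP kinases are switched on by phosphorylation of a threonine and a tyrosine in their activation loop, and dual specificity phosphatases remove both phosphates. Many of these phosphatase genes are transcribed in answer to the kinases they shut off, which makes them feedback inhibitors and common markers of recent pathway activity. Sprouty and Spred proteins are a separate brake that acts higher up, between receptor tyrosine kinases, Ras and Raf. In lymphocytes, signals from antigen receptors, Toll-like receptors and cytokine receptors all reach ERK, JNK or p38.

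The 4 arrays shared 1 slide on which the groups alternated, and no spot was saturated. Between 24983 and 26741 probes per array were well above background. Across the 25375 probes tested, Pearson's r between arrays was 0.998 within imatinib, 0.997 within control and 0.982 to 0.984 between the groups, as a description over probes that are not independent. The small number of arrays limits precision throughout, and with 2 arrays a group the smallest two-sided p of an exact permutation test is 0.333. Transcripts of other cells moved in the same arrays. All 10 B cell markers were well above background on every array, with a summed signal of 346 to 351 times the array's 75th percentile with imatinib and 358 to 384 times in control; 1 rose and 5 fell. Of 12 T cell markers 10 rose, and their summed signal was 14.9 to 15.4 with imatinib and 5.19 to 5.94 in control; Cd4 and Cd247 differed by 0.07 and 0.29 on the log2 scale and did not pass (named after their values were seen). Of 10 macrophage and monocyte markers tested 7 rose, with sums of 7.76 to 8.07 with imatinib and 3.65 to 3.73 in control, while C1qa and C1qc were not well above background on any array. Of 6 neutrophil markers tested 4 rose (S100a8, S100a9, Camp and Mpo, all dim), while the summed signal of 83.7 to 85.6 with imatinib and 64.5 to 76.7 in control was nearly all that of Csf3r, which did not pass (difference 0.27, adjusted p = 0.12). Summed signals were higher with imatinib for 8 mast cell and basophil markers (0.300 to 0.305 against 0.148 to 0.153; 4 of 5 rose and 1 fell, with Fcer1a, Gata2 and Ms4a2 not well above background on any array) and 7 erythroid and platelet markers (4.43 to 4.57 against 1.58 to 1.61; 3 of 5 rose). In the latter list the rise was largest in Pf4 (log2 difference 4.35), against 0.62 for Hba-a1 and 0.44 for Hbb-bt. Alas2 and Itga2b did not pass. Of the NK cell, dendritic cell, plasma cell and stromal markers tested, 2 of 5, 1 of 5, 3 of 7 and 0 of 4 rose, and 2, 2, 2 and 1 fell. Counted as rises, Cpa3 and Mcpt8 (mast cell and basophil), S100a9 (neutrophil) and Itgax (dendritic cell) were tested through their imatinib arrays alone. Klra4 (NK cell), counted as a fall, was tested through its control arrays alone. Such calls support nothing further, since the filter favours genes that differ in that direction. Not well above background on any array were Ngp of the neutrophil list, Gp9 (erythroid and platelet), Klrb1c and Ncr1 (NK cell), Clec9a and Xcr1 (dendritic cell), and Col1a1, Col3a1 and Pdgfrb (stromal). Fewer cells of a type and less RNA per cell cannot be told apart in such RNA, and the part of these cells in the results below was not tested.

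Of the 10 genes, 5 rose with imatinib and 0 fell. Over all 20500 genes tested, 41.1% passed the threshold, with 19.4% higher and 21.7% lower. The threshold was a Benjamini-Hochberg adjusted p under 0.05 over all probes in limma. Dusp2, Dusp4, Dusp6 and Dusp10 rose among the 6 phosphatases, and Spry1 rose among the 4 Sprouty and Spred genes. For 7 of the 10 genes the imatinib and control values were fully apart, against 72.7% of all genes. The median log2 difference of the 10 genes was 0.27, against 0.01 over all genes. Well above background on all 4 arrays were 9 of the 10 genes, of which 4 rose. Spry1 passed the filter on dim probes through the imatinib arrays alone, which favours a rise, so its call supports nothing further. These counts depend on the scaling: with arrays scaled to their spike-in controls, which moved the median difference of all probes by -0.28, 3 of the 10 genes rose (Dusp2, Dusp4 and Spry1) and 2 fell (Dusp1 and Spred2). Scaled in that way, 2802 probes were higher and 11739 lower with imatinib, in place of 4905 and 5717. Without imatinib 1, 3 of the 10 genes passed.

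**Figure D1:**
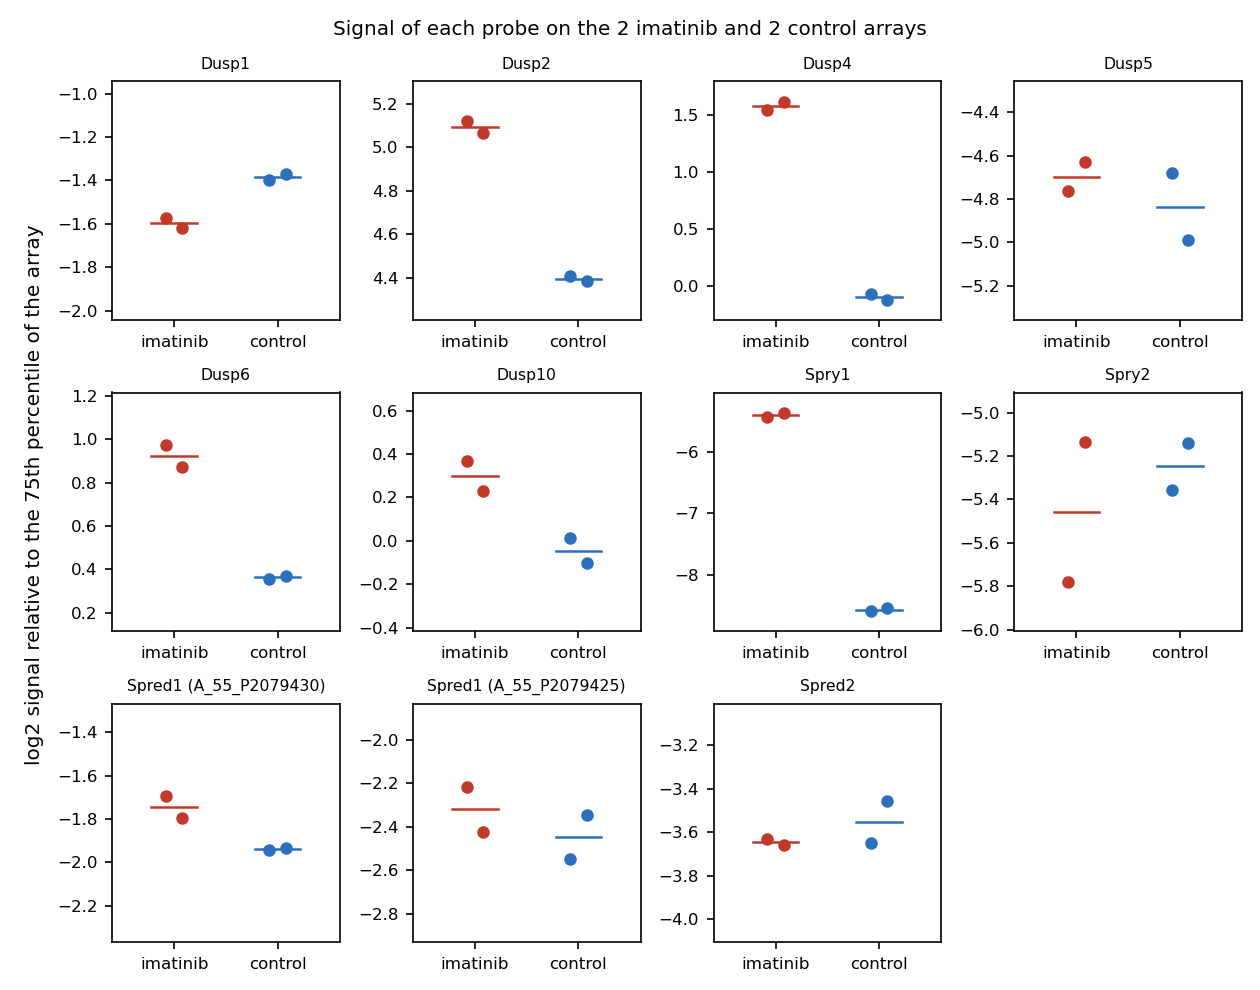
Each panel shows 1 probe with its log2 signal over the array's 75th percentile (vertical axis, its own range in each panel), 2 imatinib arrays in red at the left and 2 control arrays in blue at the right; bars are group means. The groups are far apart for Dusp4 (1.55 and 1.61 against -0.07 and -0.12) and overlap for Dusp5, Spry2, Spred2 and the second Spred1 probe.

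Among the 9 genes well above background on all 4 arrays, Dusp4 had the largest difference. It encodes MKP-2, a nuclear phosphatase that acts on ERK and JNK. With imatinib its processed signal read 2043 and 2076, against 704 and 787 in control. Relative to the 75th percentile of each array, the log2 signal averaged 1.58 ± 0.047 with imatinib and -0.09 ± 0.033 in control (SD, n = 2 arrays each). Both imatinib arrays lay far above both control arrays. The log2 difference was 1.68 (SE 0.063, 95% interval 1.50 to 1.85, adjusted p = 0.00087), a 3.19-fold higher signal. Of all genes tested, 3.07% had a larger rise. Under the 13 alternative ways of processing the difference ran from 1.39 to 1.71 and the adjusted p was at most 0.0098.

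Dusp2 encodes PAC-1, a nuclear phosphatase first known from activated T cells and found in stimulated blood cells of several kinds. Its processed signal was 24350 and 22752 with imatinib, against 15688 and 17832 in control. The log2 signal averaged 5.10 ± 0.038 with imatinib and 4.40 ± 0.017 in control (SD, n = 2 arrays each), and both imatinib values lay above both control values. The difference was 0.70 (SE 0.060, interval 0.53 to 0.87, adjusted p = 0.0040), or 1.62-fold. It was 0.42 (adjusted p = 0.013) with spike-in scaling. The summed T cell markers stood at 14.9 to 15.4 with imatinib and 5.19 to 5.94 in control on these arrays, and their part in the signal of Dusp2 was not tested.

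Dusp6 encodes MKP-3, a cytoplasmic phosphatase with a strong preference for ERK, and its transcript is widely read as a marker of ERK activity. Processed signals were 1371 and 1241 with imatinib, against 947 and 1103 in control. After scaling, the log2 signal was 0.97 and 0.87 with imatinib, against 0.36 and 0.37 in control. The groups did not overlap on this scale, and the difference was 0.56 (SE 0.066, interval 0.38 to 0.74, adjusted p = 0.0077). The call ended under 2 settings. Without imatinib 1 the difference was 0.51 (adjusted p = 0.054), and with spike-in scaling it was 0.28 (adjusted p = 0.065).

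Dusp10 encodes MKP-5, which acts on JNK and p38 rather than on ERK. Its processed signals of 903 and 796 with imatinib, against 745 and 796 in control, differed little before scaling. Relative to the 75th percentile, the log2 signal was 0.37 and 0.23 with imatinib, against 0.01 and -0.10 in control. The difference of 0.35 (SE 0.084, interval 0.11 to 0.58) passed with an adjusted p of 0.038. This call was lost when any 1 array was left out (adjusted p 0.061 to 0.17), with the replicate number as a block (adjusted p = 0.054), without the filter on dim probes (adjusted p = 0.12), with median centring (adjusted p = 0.052) and with spike-in scaling, where the difference was 0.06 (adjusted p = 0.63).

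Dusp1 encodes MKP-1, the nuclear phosphatase of p38 and JNK that LPS induces in macrophages. Its log2 signal was -1.57 and -1.62 with imatinib, against -1.40 and -1.37 in control. Both imatinib values lay below both control values, by a difference of -0.21 (SE 0.060, interval -0.38 to -0.05). It did not pass (adjusted p = 0.053), but lay past the threshold in 6 of 13 alternatives, among them quantile normalization (-0.26, adjusted p = 0.031) and spike-in scaling (-0.49, adjusted p = 0.0077). Dusp5, which encodes a nuclear phosphatase specific for ERK, was dim, with processed signals of 25.7 and 27.4 with imatinib and 28.8 and 26.9 in control. Its groups overlapped, and the difference of 0.14 (interval -0.22 to 0.50, adjusted p = 0.44) did not pass. Without control 2 it was -0.015, and without control 1 it was 0.29.

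The promoter windows of the phosphatase genes that hold a match to a known response element are shown, since inducible transcription is the textbook feature of this family. They run from 250 bases before the gene start to 50 bases after it, taken from RefSeq on GRCm38.p6, where 9 of the 10 genes had an entry and Dusp4 did not. Searched on both strands were the cAMP response element (CRE, TGACGTCA), its core (TGACG), the AP-1 site (TGACTCA or TGAGTCA), an ETS site (CCGGAAG), the EGR site (GCGTGGGCG or GCGGGGGCG), the TATA box (TATAAA), the E box (CACGTG), and the CArG box of serum response factor and the NF-kB site by their consensus. Capitals mark every match, and a CRE contains its core on both strands. The 3 windows, 5′ to 3′ along the gene, are those of Dusp1 at chr17:26508423-26508722 (minus strand), Dusp2 at chr2:127335909-127336208 (plus strand) and Dusp5 at chr19:53528895-53529194 (plus strand).
Dusp1: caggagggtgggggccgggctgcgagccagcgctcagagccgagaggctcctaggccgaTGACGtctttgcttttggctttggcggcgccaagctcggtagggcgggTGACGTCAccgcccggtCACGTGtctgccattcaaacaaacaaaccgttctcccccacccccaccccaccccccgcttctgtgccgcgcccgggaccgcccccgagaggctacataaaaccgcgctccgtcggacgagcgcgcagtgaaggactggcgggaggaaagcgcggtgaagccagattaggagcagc
Dusp2: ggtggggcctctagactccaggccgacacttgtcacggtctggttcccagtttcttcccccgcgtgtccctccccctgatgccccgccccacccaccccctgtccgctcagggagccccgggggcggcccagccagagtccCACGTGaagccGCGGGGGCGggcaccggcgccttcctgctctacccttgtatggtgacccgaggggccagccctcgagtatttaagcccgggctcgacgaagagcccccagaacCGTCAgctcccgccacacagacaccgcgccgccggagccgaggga
Dusp5: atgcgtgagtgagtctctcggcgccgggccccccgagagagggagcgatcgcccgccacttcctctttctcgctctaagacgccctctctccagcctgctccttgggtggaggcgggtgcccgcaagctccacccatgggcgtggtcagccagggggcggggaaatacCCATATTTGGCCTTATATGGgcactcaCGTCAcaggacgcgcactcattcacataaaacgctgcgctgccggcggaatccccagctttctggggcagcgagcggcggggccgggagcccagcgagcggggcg

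In the Dusp1 window a full CRE begins 143 bases before the start, a motif held by 1.79% of the 32851 mouse windows of this length, and a separate core begins 191 bases before it. Dusp5 holds a pair of adjoining CArG boxes, the first beginning 82 and the next 72 bases before the start; 1.63% of all windows hold a CArG box. Dusp2 holds an EGR site 98 bases before the start (3.47% of all windows) and an E box 109 bases before it (7.15%), and Dusp1 also holds an E box. A CRE core lies in the windows of Dusp1, Dusp2, Dusp5 and Spred2, 4 of 9, against 20.8% of all windows. No AP-1, ETS, NF-kB or TATA letters were found in the 9 windows, against 5.2%, 8.86%, 8.46% and 13.6% of all windows. Of the 3 genes shown, Dusp2 rose, Dusp1 had a difference of -0.21 and Dusp5 one of 0.14. The windows of Dusp6, Dusp10 and Spry1, which rose, held none of these motifs, and nor did those of Spry2 and Spred1, which did not pass. GC content was 57.0% to 72.3% over the 9 windows, against a median of 52.7%. A match is a description of the letters and not a bound site.

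Spry1 encodes Sprouty 1, an inhibitor of Ras and ERK signalling below receptor tyrosine kinases and, in lymphocytes, below antigen receptors. Its spot had a mean brightness of 67.7 and 68.1 with imatinib, over a local background of 55.0 and 54.0. In control the brightness was 51.1 and 53.6, under a local background of 54.0 and 59.0, and the spot was not well above background on either control array. Its fold change could not be measured. Set against a floor for the control arrays, Spry1 was 1.98-fold higher with imatinib, a log2 difference of 0.98. The floor of -6.39 is the mean over the control arrays of the dimmest value that still counted as well above background. It stands in place of the mean log2 processed signal of -8.56 there, against -5.41 with imatinib. The file headers show that the software could put surrogate values in place of dim signals. Whether -8.56 rests on such values was not checked. The 1.98-fold figure is not a strict lower limit, since the size rests on how background was removed. With normexp the log2 difference was 0.50 (adjusted p = 0.00015). The adjusted p in limma was 0.00067 and supports nothing further, since Spry1 was tested through its imatinib arrays alone.

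**Figure D2:**
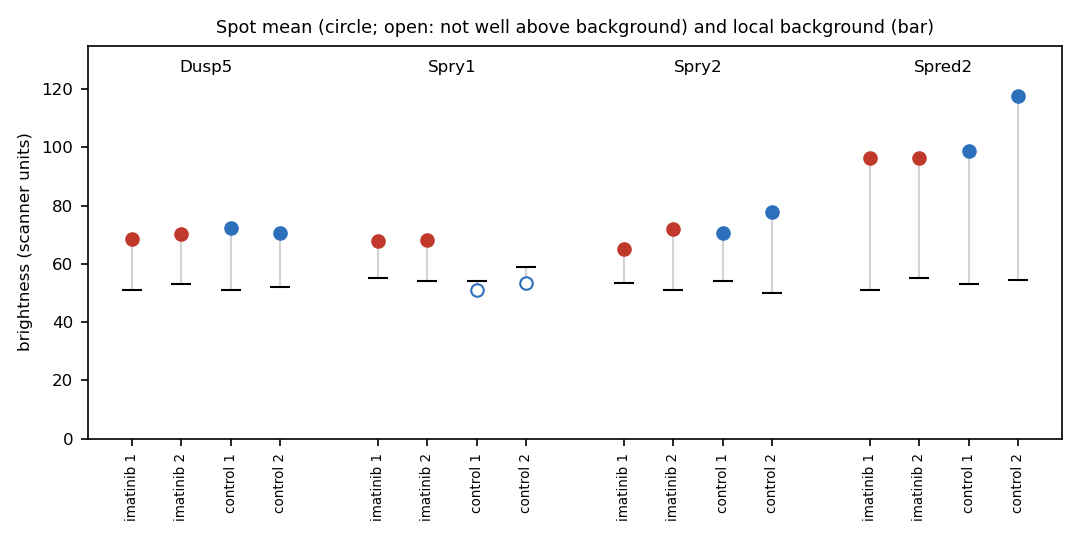
The spot mean (circles) and local background (bars) in scanner units on the vertical axis are shown for the 4 dimmest genes on each array, with imatinib in red and control in blue and open circles for spots not well above background. Spry1 (67.7 and 68.1 with imatinib) stands over its background with imatinib and lies under it on both control arrays, while Dusp5, Spry2 and Spred2 stand above it on all 4 arrays.

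Spry2, the relative that is often induced together with Spry1, was as dim but well above background on all 4 arrays. Its log2 signal was -5.78 and -5.13 with imatinib, against -5.35 and -5.14 in control. The groups overlapped, and the 2 imatinib arrays were farther apart than the group means. The difference of -0.21 had an interval of -0.89 to 0.47 (adjusted p = 0.54), wide enough to hold changes of some size in either direction, and it was 0.11 without imatinib 1 and -0.53 without imatinib 2.

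Spred1 and Spred2 encode membrane proteins that hold back the activation of Raf by Ras, and Spred1 brings the Ras inhibitor neurofibromin to the membrane. The brighter Spred1 probe, A_55_P2079430, had a log2 signal of -1.69 and -1.79 with imatinib, against -1.94 and -1.94 in control. These values did not overlap, but the difference of 0.20 (interval 0.01 to 0.38, adjusted p = 0.084) did not pass, and it was -0.086 with spike-in scaling. The dimmer probe, A_55_P2079425, differed by 0.13 (interval -0.19 to 0.44, adjusted p = 0.43) with overlapping groups, so the probes did not disagree in sign. Spred2 had a log2 signal of -3.63 and -3.66 with imatinib, against -3.65 and -3.46 in control. Its difference of -0.09 (interval -0.34 to 0.15, adjusted p = 0.46) rested on control 2, the highest of the 4 arrays; without it the difference was 0.0052, and with spike-in scaling it was -0.37 (adjusted p = 0.041).

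**Figure D3:**
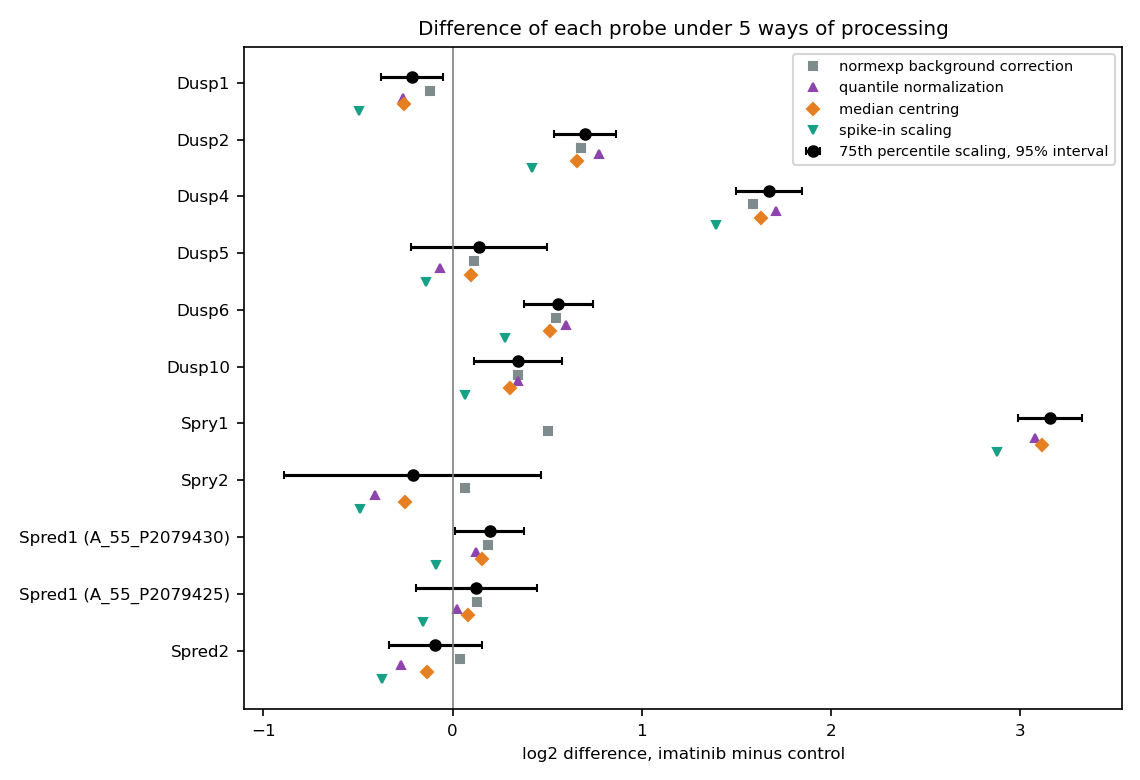
Log2 difference of imatinib minus control (horizontal axis) for each probe, as black points with 95% intervals for scaling to the 75th percentile and as coloured marks for 4 other ways of processing. Dusp4 (1.39 to 1.71) and Dusp2 (0.42 to 0.77) stay right of 0 under each of them, spike-in scaling moves all probes to the left, and normexp moves Spry1 to 0.50.

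The rises were not uniform in size. Of all genes tested, 9.97% rose by more than Dusp2, 12.6% by more than Dusp6 and 20.2% by more than Dusp10. Dusp1, the lowest of the 10 genes, had 28.1% of all genes below it. By the closeness of the 4 centred log2 values within a pool of 13465 genes detected on each array, the nearest to Dusp4 were Adgre5, which encodes the adhesion receptor CD97 (distance 0.047, difference 1.66), Lmna, which encodes lamin A (0.057, 1.64), and Jdp2, a repressor of the AP-1 family (0.057, 1.64). There were 104 genes within a distance of 0.2. For Dusp1 the nearest were Tbc1d8b, Fpgt and Cenph, with differences of -0.21, -0.22 and -0.21, and 3658 genes lay within 0.2.

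**Figure D4:**
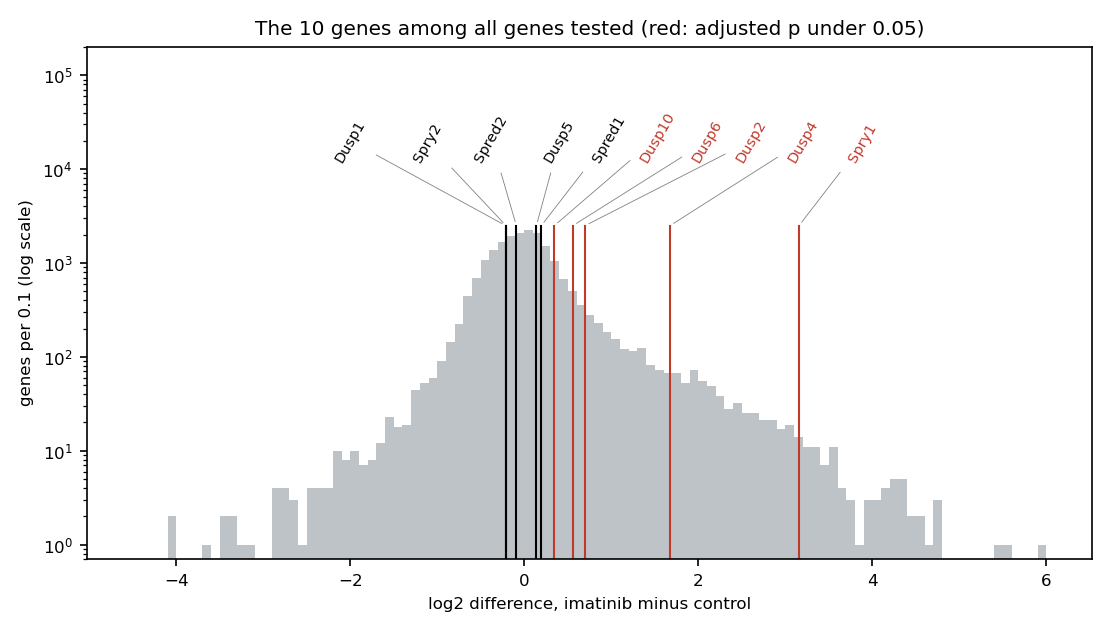
The grey histogram counts all 20500 genes by their log2 difference of imatinib minus control (vertical axis on a log scale), and lines mark the 10 genes, in red where they passed. Dusp4 and Spry1 lie in the right tail, with the place of Spry1 set by control values that were not well above background, and the other 8 lie between -0.21 and 0.70.

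Other members of both families gave a mixed picture. Of 15 further dual specificity phosphatases 11 were tested, of which 2 rose and 4 fell, with a median of -0.03 against 0.01 over all genes. That is 54.5% called, against 41.1% of all genes, where 19.4% were higher and 21.7% lower. Dusp3, a small phosphatase (VHR) that acts on ERK and JNK, rose by 1.43 on the log2 scale (SE 0.067, adjusted p = 0.0012), and its second probe rose by 1.09. Dusp14 rose by 0.56. Dusp12 fell by 0.71 and Dusp9, which encodes the ERK phosphatase MKP-4, fell by 0.68. Dusp9 did not pass without imatinib 1 (adjusted p = 0.069) or imatinib 2 (0.061), nor did Dusp9 without the filter on dim probes (0.056); with normexp it differed by -0.21. Dusp14 did not pass without imatinib 2 (adjusted p = 0.055) or with spike-in scaling (0.28, adjusted p = 0.051). Spry3, Spry4 and Spred3 were not well above background on any array.

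Of 17 further Sprouty and Spred genes and brakes on Ras and receptor kinases 14 were tested, of which 8 rose and 0 fell, with a median of 0.30. Over all genes tested 19.4% were higher and 21.7% lower, and the median was 0.01. Lrig1, 1 of the 8, was tested through its imatinib arrays alone, which favours a rise, so its call supports nothing further. Rasal1, which speeds the hydrolysis of GTP by Ras, rose by 0.82 (0.53 with spike-in scaling). The adaptors Dok3 and Dok2, of which Dok2 recruits Ras inhibitors to activated receptors, rose by 0.75 and 0.72 (0.47 and 0.43 with spike-in scaling). Cblb, a ubiquitin ligase that restrains lymphocyte receptors, rose by 0.47, and did not pass without imatinib 1 (adjusted p = 0.068), without imatinib 2 (0.061) or with spike-in scaling (0.19, adjusted p = 0.135). In these arrays 10 of 12 T cell markers and 7 of 10 macrophage and monocyte markers tested rose as well, while Csf1r, Mpeg1 and C1qb did not pass. The part of these cells in the rises of this list was not tested.

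The kinase cascades that these proteins act on moved both ways, as did all genes tested. In the path from Ras to ERK, 6 of 24 genes rose and 5 fell, with a median of 0.01. That is 45.8% called, against 41.1% of all genes, where 19.4% were higher and 21.7% lower. Rasgrp1, a Ras activator best known from T cells, rose by 1.41 (SE 0.066, adjusted p = 0.0012), on arrays where 10 of 12 T cell markers rose. The part of T cells in the signal of Rasgrp1 was not tested. The brighter probe of the adaptor Gab3 rose by 1.34 but holds a 3-base repeat of 34 bases; its other probe, without such a run, rose by 1.29. Map2k1, the kinase MEK1 directly above ERK, fell by 0.61 (SE 0.066, adjusted p = 0.0063).

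Among 21 genes of the JNK and p38 cascades 5 rose and 3 fell, with a median of -0.03. That is 38.1% called, against 41.1% of all genes (19.4% higher and 21.7% lower). Mapk10 (JNK3) fell by 1.67, Mapk12 (p38 gamma) rose by 1.51 and Map3k2, a kinase above JNK and ERK5, rose by 0.74 (0.45 with spike-in scaling). Mapk10 and Mapk12 were dim, and with normexp they differed by -0.52 and 0.60. Mapk12 lost its call without imatinib 1 (adjusted p = 0.056), without imatinib 2 (0.071) and without the filter on dim probes (0.062). The brighter probe of Mapk8 (JNK1) rose by 1.44 (0.70 with normexp), while its other probe differed by 0.19 (adjusted p = 0.15), so the probes of Mapk8 disagreed. Of 10 kinases downstream of MAP kinases 2 rose and 2 fell, or 40% called, near the 41.1% of all genes. Mapkapk3 and Rps6ka5 (MSK1) rose by 0.50 and 0.39, and Mknk2 and Mapkapk5 fell by 0.35 and 0.32. None of the 4 passed without imatinib 1 (adjusted p = 0.052, 0.13, 0.11 and 0.12 in that order) or without imatinib 2 (0.061, 0.062, 0.095 and 0.13). Rps6ka5 and Mknk2 also missed the threshold without control 1 (0.077 and 0.051), and Rps6ka5 and Mapkapk5 without control 2 (0.11 and 0.069). With spike-in scaling Mapkapk3 differed by 0.22 (adjusted p = 0.089) and Rps6ka5 by 0.11 (0.46), while Mknk2 and Mapkapk5 differed by -0.63 and -0.60 and passed. Rps6ka5 also differed by 0.21 under quantile normalization (adjusted p = 0.19). Rps6ka5, Mknk2 and Mapkapk5 did not pass without the filter on dim probes (adjusted p = 0.10, 0.072 and 0.089) or with the replicate number as a block (0.054, 0.057 and 0.067).

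A list of genes linked to ERK, here called ERK responsive transcripts, was also read, to set beside the feedback genes. It also holds Elk1, Elk3, Elk4, Ets1 and Bcl2l11, so it is not a pure readout of transcripts induced by ERK. None of these passed. Of 28 genes of the list tested, 11 rose and 5 fell, with a median of 0.28. Egr3, 1 of the 11, was tested through its imatinib arrays alone, which favours a rise, so its call supports nothing further. Among all genes 19.4% were higher and 21.7% lower. The AP-1 gene Fosl2 rose by 3.16 on its brighter probe and by 1.13 on its other (1.98 with normexp on the brighter), and Plaur, the urokinase receptor, rose by 2.81. The immediate early factors Egr1 and Egr2 rose by 1.11 and 1.09. Egr1 had a log2 signal of 1.47 and 1.42 with imatinib, against 0.29 and 0.39 in control. Among those that fell were Myc, Junb and Srf, with differences of -0.595, -0.49 and -0.41, named after their values were seen. Over the 6 lists, 34 of 108 genes rose and 19 fell, and with spike-in scaling 20 rose and 44 fell.

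**Figure D5:**
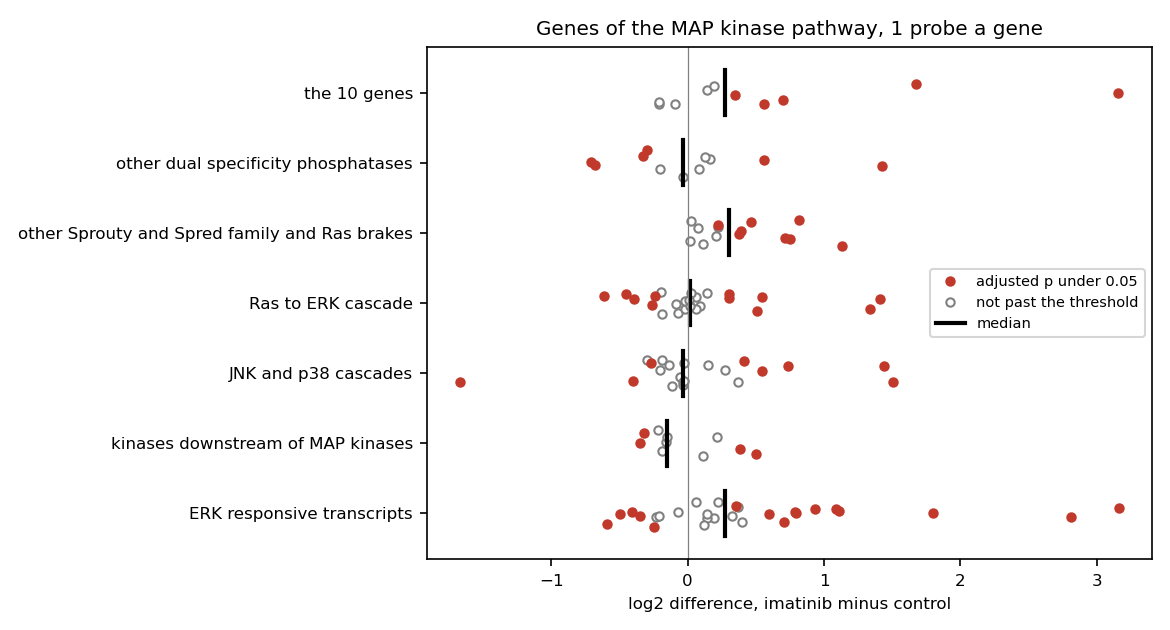
Each point is 1 gene by its log2 difference of imatinib minus control (horizontal axis), filled where the adjusted p was under 0.05, with a bar at the median of each row. Among the 10 genes (median 0.27) the point at 3.16 is Spry1. Its size was not measured, since its control spots were not well above background. The next is Dusp4 at 1.68. The ERK responsive transcripts (median 0.28) reach 3.16 with Fosl2, and the Ras to ERK cascade (0.01) and the JNK and p38 cascades (-0.03) lie on both sides of 0.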

How the data were processed

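RNA of spleen cell cultures was measured on 4 Agilent 1-colour (Cy3) arrays, 2 with imatinib and 2 without. The deposited scanner output gives each spot's intensity as processed by Feature Extraction 9.1.3.1 (array design 026655). Per the file headers, spatial and multiplicative detrending were on, the background correction setting was off, and arrays were not scaled to each other. A deposited table of log2 values, which the authors derived with GeneSpringGX per the series' design text, followed log2 processed signal with r of at least 0.9999 on each array; column medians were -4.00 and -3.92 (imatinib) and -4.10 and -4.17 (control), and its centring rule is not known. The flag columns of the deposited files, unit other, marked outlier spots, which were left out.

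Log2 processed signals were averaged per probe, and the 75th percentile of the array, 699 and 678 for imatinib and 739 and 854 for control, was subtracted. Tested were the 25375 probes that 1 group or both had well above background on its 2 arrays. The comparison used limma 3.58.1 under R 4.3.3 (lmFit and eBayes on the 2 groups, no covariate), two-sided, with Benjamini-Hochberg adjustment over all probes, 2 residual and 2.05 prior degrees of freedom. The fit was tested on simulated data. Each gene was read from its brightest probe on average; GRCm38.p6 names came by accession, symbol or synonym, and 9249 probes kept the name in the files. The floor used for Spry1 was, on each control array, the higher of the probe's processed signal and the lowest signal well above background. The 10 genes, the 6 pathway lists and the marker lists were chosen with earlier results of these data known. Named were, per list, up to 4 genes with the largest change past the threshold without overlap, those above background on all arrays first, and the 3 nearest profiles to the member with the largest rise and the one with the largest fall among those above background on all arrays. A few genes that this rule names are not reported here. No member probe held a perfect repeat run over 7 bases. Alternatives were normexp (offset 50), spike-in scaling, median centring, quantile normalization, 2 other filters on dim probes, a block for the replicate number, leaving out each array in turn, the deposited table, a trend and robust variance model, and the mean over the probes of a gene.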

Additional observations from a re-analysis of the deposited data

How the results depend on the processing

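Over 142 comparisons of the 11 probes of the 10 genes with an alternative, 115 kept direction and side of the threshold, 10 lost the call, 8 gained one and 9 changed sign, each of these for a probe that had not passed. Dusp5 turned to -0.065 under quantile normalization, -0.14 under spike-in scaling and ranged from -0.015 (without control 2) to 0.29 with 1 array left out. The Spred1 probes turned to -0.086 and -0.16 under spike-in scaling. Spred2 turned to 0.040 with normexp and ranged from -0.19 to 0.0052 with 1 array left out, and Spry2 turned to 0.067 with normexp and ranged from -0.53 to 0.11. Of the 10 genes, 3 to 4 passed with 1 array left out. The number of probes called, 10622, was 4971 without a filter on dim probes and 4040 to 8878 with 1 array left out, and the 53 of 108 pathway genes called were 25 without that filter and 21 to 38 with 1 array left out. The cause was not tested.

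The replicate numbers mark nothing shared in the labels, and over probes the deviations of same-numbered arrays had r = -0.069. With the replicate number as a block, 7164 probes, 4 of the 10 genes (Dusp10 no longer) and 35 pathway genes passed. The number of arrays and the dim spots of Spry1, Spry2, Dusp5 and Spred2 limit the precision, and cross-hybridisation was not analysed here.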
